A study of Mus musculus with 12 samples.

Results

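The transcripts described here encode the liver's desaturases and elongases of polyunsaturated fatty acids: Fads1, Fads2, Fads6, Elovl1, Elovl2 and Elovl5. They were chosen by name, and all 6 were found among the 12086 genes of the table, through the Ensembl identifiers ENSMUSG00000010663 (Fads1), ENSMUSG00000024665 (Fads2), ENSMUSG00000044788 (Fads6), ENSMUSG00000006390 (Elovl1), ENSMUSG00000021364 (Elovl2) and ENSMUSG00000032349 (Elovl5). All 6 passed the filter on low values.

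RNA sequencing was done on livers of wild-type male C57BL/6 mice at 12 weeks of age (postnatal day 84), killed after fasting. The first letter of a group is the diet of the dam, the second the diet of the offspring after weaning on day 21, with O for obesogenic and C for control. OO animals met the obesogenic diet through the dam and again after weaning, CO animals only after weaning, OC animals only through the dam, and CC animals at neither time. The obesogenic pellets held 10% simple carbohydrate and 20% lipid and were given with sweetened condensed milk (55% simple carbohydrate, 8% lipid, 8% protein), whereas the control chow held 7% simple carbohydrate and 3% lipid. All litters had been brought to 6 pups on day 3, and dams stayed on their diet from before mating to weaning. The sources used here do not say which animals were littermates, so p-values measure only the spread between these libraries. The table held 3 OO, 2 CO, 3 OC and 3 CC libraries, for 12 labelled samples, and a library is known by its group only. Libraries are called by the group and a running number from 0, as in OC.2.

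Polyunsaturated fatty acids with very long chains are made in the liver, mostly in the endoplasmic reticulum, from the essential linoleic and alpha-linolenic acids of the diet. Fads2 sets the first new double bond (delta-6 desaturase) and Fads1 a later one (delta-5 desaturase), and both take electrons through cytochrome b5. Elovl5 lengthens the chain between these steps, and Elovl2 lengthens the longer chains on the way to docosahexaenoic acid. Elovl1 acts mainly on saturated and monounsaturated very long chains, and Fads6 belongs to the same gene family with a poorly known substrate. SREBP-1c, encoded by Srebf1, and PPARalpha, encoded by Ppara, are both known to raise transcription of Fads2, Fads1 and Elovl5 in mouse liver.

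The start regions of Fads2 and Elovl5 are shown because these genes had the largest differences between the offspring diets among the 6. Each is the RefSeq window on GRCm38.p6 from 250 bases before to 50 bases after the annotated start, read 5′ to 3′ on the gene's strand, at chr19:10101454-10101753 on the minus strand for Fads2 and at chr9:77917115-77917414 on the plus strand for Elovl5. Capitals mark matches, on either strand, to CACGTG (an E-box), CCAAT (bound by NF-Y), GGGCGG (a GC box), AGGTCA (a nuclear receptor half-site), TCACCCCAC (a sterol response element) or its looser form TCACNCCAC, which contains the stricter one. None of the 6 motifs overlapped another in these 2 windows.
Fads2: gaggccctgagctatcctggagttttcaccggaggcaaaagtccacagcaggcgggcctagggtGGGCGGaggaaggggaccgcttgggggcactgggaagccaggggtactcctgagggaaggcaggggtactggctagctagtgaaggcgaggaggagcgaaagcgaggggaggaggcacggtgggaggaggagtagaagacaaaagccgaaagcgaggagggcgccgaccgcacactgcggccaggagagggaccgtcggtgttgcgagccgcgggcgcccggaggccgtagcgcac
Elovl5: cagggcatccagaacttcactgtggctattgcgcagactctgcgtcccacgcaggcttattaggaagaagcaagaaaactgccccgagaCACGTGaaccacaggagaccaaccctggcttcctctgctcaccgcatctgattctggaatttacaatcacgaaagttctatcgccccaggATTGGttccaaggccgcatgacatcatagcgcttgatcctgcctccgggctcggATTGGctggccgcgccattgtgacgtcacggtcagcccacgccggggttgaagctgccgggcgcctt

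The Fads2 window held 1 GGGCGG, beginning 186 bases before the start, and the Elovl5 window held 1 CACGTG, at 161 bases before it, and 2 CCAAT on the opposite strand, at 71 and 17 bases before it. Among 32544 RefSeq windows of the same length, 35.9% held GGGCGG, 7.17% held CACGTG and 37.4% held CCAAT. The half-site AGGTCA stood in 16.2% of all windows and, among the 7 windows found for 5 of the 6 genes, in that of Fads6, with 2 matches, and in 1 of the 2 of Elovl1. TCACCCCAC, in 0.556% of all windows, and TCACNCCAC, in 1.24%, had no match in any of the 7. On chromosome 19, Fads3, Fads2 and Fads1 follow each other in that order.

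Values are scaled counts, which are not divided by transcript length, so levels are compared between libraries and not between genes. The recovered depth was 3976161 reads in OO.1 and 27837610 in OO.0, and 4575516 to 7969057 in the other 9 libraries. The fewest reads behind any value were about 85 for Elovl1, 413 for Fads6, 804 for Fads1, 1364 for Fads2, 2593 for Elovl2 and 2602 for Elovl5. Counting error alone at the fewest reads was 10.8% of the value for Elovl1 and at most 4.92% for each of the others. The hepatocyte markers analysed, 10 of 11, fitted the label of the tissue, with a summed value of 53527 to 78459 per library. The defining Alb was not found among the genes of the table, and the reason was not tested. Some libraries stood apart. Exocrine pancreas transcripts summed to 6375 in OC.0 and 4070 in CO.1, against 7.46 to 965 in the other 9, and acute phase transcripts to 75483 in CO.1 and 55204 in OC.1, against 15966 to 25854 in the other 9. In OO.1 a single gene, Lars2, took 12.9% of all values. In OO.2 the 2 analysed adipocyte markers of 8 summed to 2939, against 166 to 1280 in the other 10. Stellate cell markers summed to 639 in OO.2, against 401 to 512. The defining adipocyte genes Adipoq and Plin1 were not among the genes analysed. The 2 analysed ones had opposite signs between OO and CO (1 above 0, 1 below), which compares group means and not OO.2 alone. Whether OO.2 held fat tissue was not tested.

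None of the 6 genes passed the threshold in any of the 7 comparisons, by limma's moderated test with Benjamini-Hochberg adjustment at 0.05 over all 12086 genes. The offspring diet was tested in each dam group. Between CO and CC, 0 of 6 genes were called, as were 216 of all genes (1.79%), and 2030 genes had an unadjusted p under 0.05. Between OO and OC, 0 of 6 were called, as were 20 of all genes (0.165%), with 968 at an unadjusted p under 0.05. For the offspring diet averaged over both dam diets, 0 of 6 were called, as were 479 of all genes (3.96%), with 2339 at an unadjusted p under 0.05. The 6 genes had a median log2 fold change of 0.07 for that average, 3 of them above 0 and 3 below, beside a median of -0.00078 over all genes. At an unadjusted p under 0.05 only Fads2 passed, for the average and for OO against OC.

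**Figure D1:**
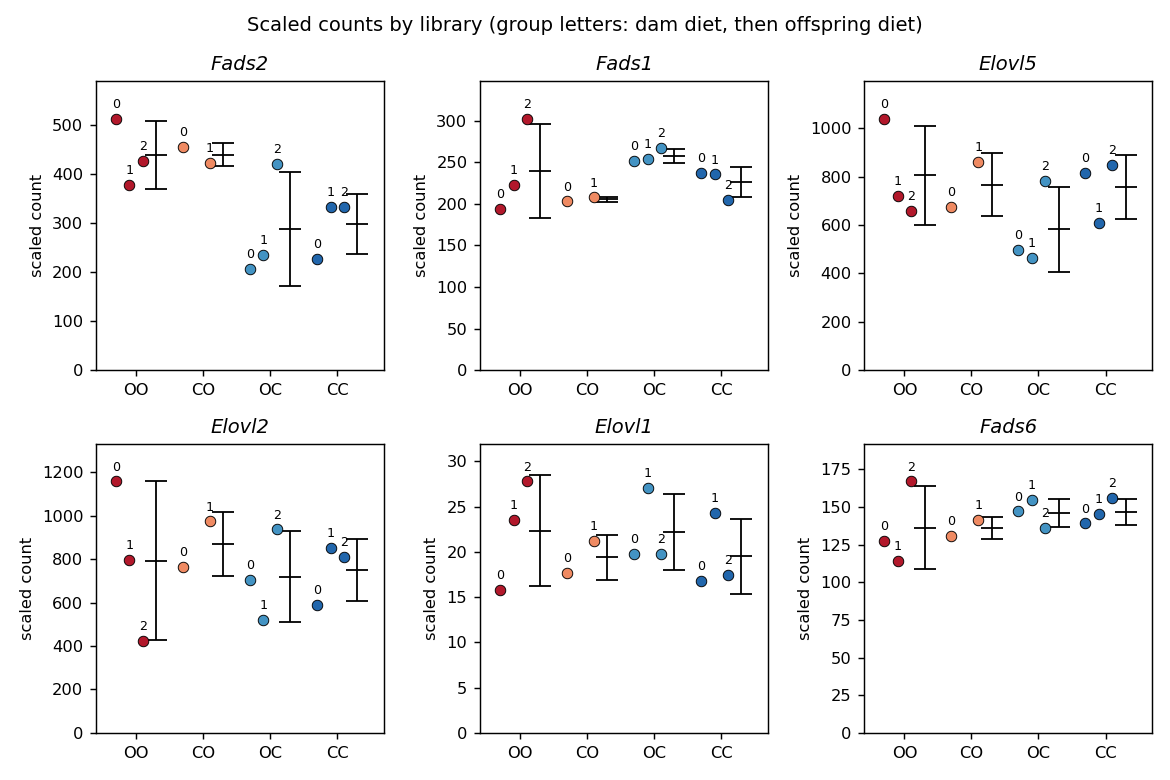
Scaled counts of the 6 genes (vertical axes, from 0) in each library, by group, with each point marked by its library number and the mean and SD drawn beside the points. The 5 Fads2 values of the OO and CO groups lie between 377 and 512, above 5 of the 6 values of the OC and CC groups.

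Fads2, which opens the pathway, had the largest difference with the offspring diet. Its scaled count was 512, 377 and 426 in the OO libraries, against 207, 235 and 420 in the OC libraries. It was 456 and 422 in the CO libraries, against 227, 333 and 333 in the CC libraries. Both CO libraries lay above all CC libraries, whereas OO and OC overlapped through OC.2 alone. Over all genes, 35.0% did not overlap between CO and CC, 17.0% with CO above, so the separation of Fads2 there is a common one. Group means were 439 ± 68.4 in OO and 287 ± 116 in OC (SD, n = 3 each), and 439 ± 23.4 in CO (SD, n = 2) and 298 ± 61.1 in CC (SD, n = 3).

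On the log2(value + 0.5) scale, Fads2 was higher by 0.63 with the obesogenic offspring diet averaged over dam diets (1.54-fold; SE 0.18; 95% interval 0.22 to 1.03; limma unadjusted p = 0.00551, adjusted p = 0.0840). An absolute change as large or larger was seen in 5.60% of all genes. The difference was 0.67 between OO and OC (interval 0.13 to 1.21; limma unadjusted p = 0.0187, adjusted p = 0.502) and 0.58 between CO and CC (interval -0.019 to 1.18; adjusted p = 0.311). Both point the same way, and they differed from each other by 0.089 (interval -0.72 to 0.89; adjusted p of the interaction = 0.988). A two-sided exact permutation test within dam groups, over 200 arrangements with a smallest possible p of 0.005, gave p = 0.02 for the average, which is unadjusted and the smallest of 12 such tests. The other 11 such tests, of the remaining genes for the offspring diet and of all 6 for the dam diet, gave exact p-values of 0.12 to 0.99. The call of Fads2 depends on a single library: without OC.2, whose value was the highest of the 6 control-fed offspring, the difference was 0.78 and passed the threshold (limma adjusted p = 0.0179). Under each of the other 21 alternatives it lay between 0.53 and 0.68 and did not pass.

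**Figure D2:**
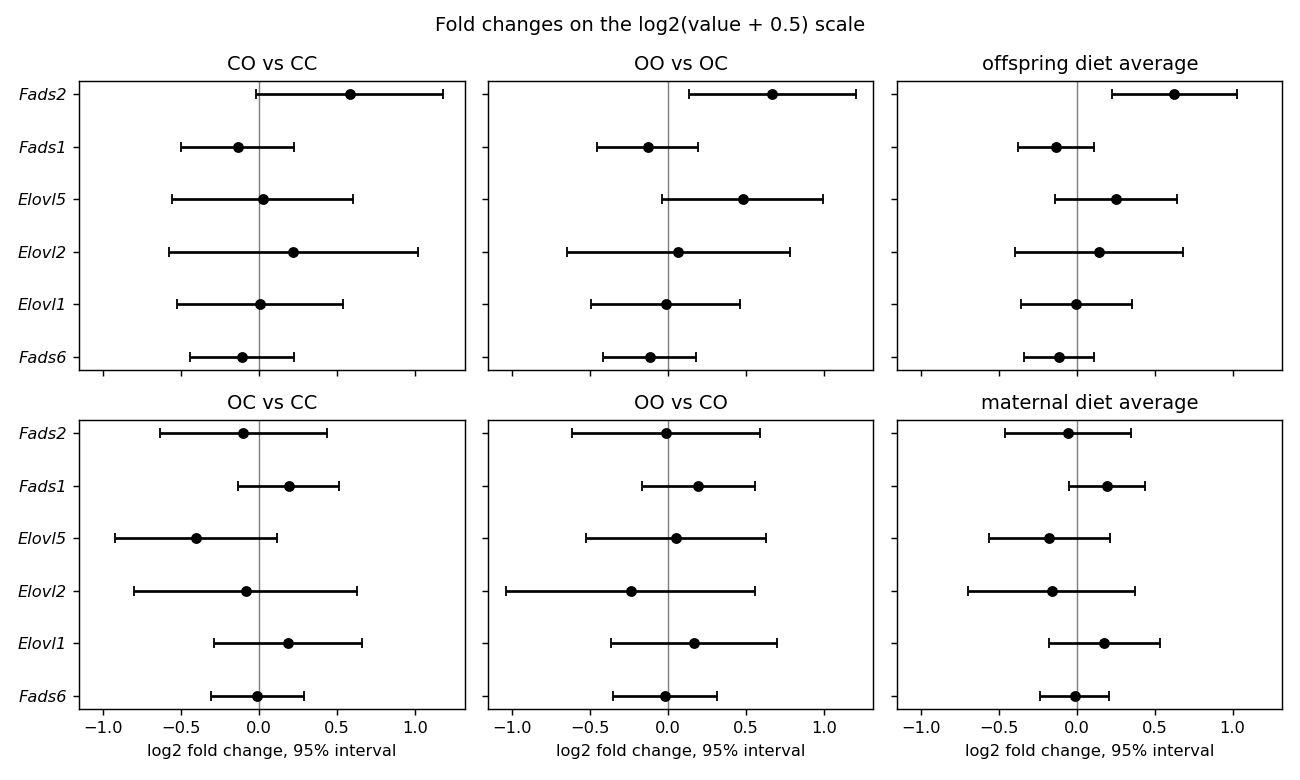
Log2 fold changes (points) with 95% intervals (bars) of the 6 genes in 6 comparisons, from limma, with positive values for higher levels on the obesogenic diet of the offspring (top row) or of the dam (bottom row). The intervals of Fads2 for OO against OC, 0.13 to 1.21, and for the offspring diet average, 0.22 to 1.03, lie above 0, and those drawn for every other gene and comparison cross it.

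Several measures moved with the offspring diet and stand beside the Fads2 values. The 4 analysed cholangiocyte markers of 7 (Epcam, Sox9, Spp1 and Krt23) summed to 52.3 to 79.9 in OO and 59.8 to 67.5 in CO, against 30.5 to 42.4 in OC and 26.9 to 42.4 in CC. In the offspring diet average 3 of the 4 stood above 0 and 1 below, with 0 passing. The defining Krt7 and Krt19 were not among the genes analysed. Of 10 listed symbols of periportal hepatocyte markers 9 were found, all but G6pc1, and G6pc was among the 9. They summed to 4593 to 8836 in OO and 5400 to 6352 in CO, against 7679 to 9666 in OC and 9493 to 10180 in CC. In the offspring diet average 6 of the 9 passed the threshold and fell, from Gls2 (-0.91) to Etnppl (-2.51). Of the 9, 7 stood below 0 and 2 above. Among all 12086 genes 208 fell. Of the 10 general hepatocyte markers Tat, Ass1 and Cps1 fell, by 1.23, 0.9997 and 1.06 on the log2 scale (limma adjusted p = 0.0149, 0.0280 and 0.0318). In that list 8 stood below 0 and 2 above. All 10 Kupffer cell markers stood above 0 (median 0.30, 0 passing). Their sums were 583 to 633 in OO and 521 to 587 in CO, against 434 to 686 in OC and 379 to 503 in CC. All 10 also stood above 0 for the dam diet average (median 0.17, 0 passing), so this sign is not particular to the offspring diet. In the other marker lists only Saa4 rose for the acute phase response (16 of 17 above 0) and only S100a8 for neutrophils (4 of 4). Only Slc1a2 rose for pericentral hepatocytes (6 of 10), and 0 passed for stellate cells (7 of 8 above 0), the exocrine pancreas (12 of 12) and the rest. These are averages over dam groups, and some hide opposite signs. Acute phase genes stood above 0 in 17 of 17 between CO and CC, and below 0 in 14 of 17 between OO and OC. Exocrine pancreas genes stood above 0 in 12 of 12 between CO and CC, and below 0 in 12 of 12 between OO and OC. The mitochondrial ribosomal transcript mt-Rnr2 was listed at 0 in every OO and CO library, against 43306 to 45424 in OC and 43529 to 51009 in CC. Mup17 was likewise listed at 0 in every OO and CO library, against 191 to 1416 in OC and 107 to 754 in CC, and Serpina1b, Serpina1d and 2 further genes were listed at 0 in every OO library only. An exact 0 beside such levels can be a failed estimate, and the sources used here do not say whether all groups were counted alike, so counting and group cannot be told apart for these genes. Their part in the Fads2 difference, and in the offspring diet differences of the other genes named, was not tested. In whole liver, fewer cells of a type and less RNA per cell cannot be told apart. Without both pancreas-rich libraries (OC.0 and CO.1) the Fads2 average was 0.55, and without both libraries rich in acute phase transcripts (OC.1 and CO.1) it was 0.60.

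Fads1, the delta-5 desaturase next to Fads2 on the chromosome, stood on the other side of 0 for the offspring diet. Its scaled count was 194, 222 and 302 in OO and 203 and 208 in CO, against 251, 254 and 267 in OC and 237, 235 and 205 in CC. The offspring groups overlapped in both dam groups, and OO held both the highest and the lowest of the 11 values. The offspring diet average was -0.13 (interval -0.38 to 0.11; limma adjusted p = 0.570), and the upper bound lies below the 0.63 of Fads2. All OC libraries lay above all CC libraries, as did 5.32% of all genes, and the difference there was 0.19 (interval -0.13 to 0.52; adjusted p = 0.923).

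The ratio of Fads2 to Fads1 within a library does not depend on the library's scaling, although its size depends on transcript length. It averaged 1.92 ± 0.65 in OO and 1.11 ± 0.41 in OC (SD, n = 3 each), and 2.14 ± 0.15 in CO (SD, n = 2) and 1.33 ± 0.34 in CC (SD, n = 3). The 5 libraries of obesogenic-fed offspring ran from 1.41 to 2.64 and the 6 of control-fed offspring from 0.823 to 1.63, so the ranges overlapped. The ratio is given as a description, without a test.

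Elovl5, the elongase between the desaturation steps, was 1039, 719 and 659 in OO, against 498, 465 and 783 in OC. It was 674 and 859 in CO, against 815, 607 and 849 in CC. The lowest 2 of the 11 libraries were both OC libraries, and the groups overlapped in every comparison. The difference was 0.48 between OO and OC (interval -0.038 to 0.998; limma unadjusted p = 0.0664, adjusted p = 0.662), and 0.023 between CO and CC (interval -0.56 to 0.60; adjusted p = 0.975). These 2 differences differed by 0.46 (interval -0.32 to 1.23; unadjusted p of the interaction = 0.224, adjusted p = 0.936), so no dependence on the dam's diet was detected. Between OC and CC the log2 difference was -0.40 (interval -0.92 to 0.11; adjusted p = 0.923).

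Elovl2, the elongase toward docosahexaenoic acid, was the most variable of the 6. Its scaled count was 1157, 798 and 424 in OO and 765 and 973 in CO, against 703, 518 and 937 in OC and 589, 852 and 810 in CC. The OO group alone spanned the whole range of the 11 libraries, which was 2.73-fold, and 1.77-fold was the median range over all genes. Its pooled within-group SD was 0.49 on the log2 scale, and 7.28% of all genes had a larger one. The interval of its offspring diet average, 0.14, accordingly ran from -0.39 to 0.68 (limma adjusted p = 0.807), and the interval also holds the value of Fads2, 0.63.

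For Elovl1 and Fads6 the offspring diet averages lay close to 0. Elovl1 was 15.8, 23.5 and 27.8 in OO and 17.7 and 21.2 in CO, against 19.7, 27.1 and 19.8 in OC and 16.8, 24.3 and 17.4 in CC. Its offspring diet average was -0.0025 (interval -0.36 to 0.36; limma adjusted p = 0.996). Fads6 was 127, 114 and 167 in OO and 131 and 141 in CO, against 147, 155 and 136 in OC and 139, 145 and 156 in CC. Its offspring diet average was -0.11 (interval -0.34 to 0.11; adjusted p = 0.594). Both had overlapping groups in each of the 4 pairwise comparisons. The pooled within-group SD of Fads6, 0.17, and of Fads1, 0.19, lay below the median of all genes, 0.22, and those of Elovl1 (0.31), Elovl5 (0.33) and Fads2 (0.36) above it.

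The dam's diet was tested at each offspring diet. Between OC and CC, 0 of 6 genes were called, as were 0 of all genes (0%), with 636 at an unadjusted p under 0.05 by limma. Between OO and CO, 0 of 6 were called, as were 5 of all genes (0.0414%), with 715 at an unadjusted p under 0.05. For the dam's diet averaged over both offspring diets, 0 of 6 were called, as were 4 of all genes (0.0331%), with 741 at an unadjusted p under 0.05. For the interaction of the diets, 0 of 6 were called, as were 4 of all genes (0.0331%), with 551 at an unadjusted p under 0.05. In the average the log2 fold changes ran from -0.18 for Elovl5 (interval -0.56 to 0.21) to 0.19 for Fads1 (interval -0.050 to 0.44; limma unadjusted p = 0.109, adjusted p = 0.816). Fads2 stood at -0.056 (interval -0.46 to 0.35) and Fads6 at -0.014 (interval -0.24 to 0.21). The widest interval was that of Elovl2, at -0.16 (interval -0.70 to 0.38), and Elovl1 stood at 0.18 (interval -0.18 to 0.53).

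Within the OO group the genes split by library. OO.2 had the highest value of all 11 libraries for Fads1, Fads6 and Elovl1 and the lowest for Elovl2. OO.0 had the highest for Fads2, Elovl2 and Elovl5 and the lowest for Fads1 and Elovl1. On the log2 scale, Elovl2 deviated from its OO mean by 0.66 in OO.0 and by -0.79 in OO.2, whereas Fads1 deviated by -0.28 in OO.0 and 0.36 in OO.2. In OC.2, the library that overlapped with OO for Fads2, the deviations were 0.62 for Fads2, 0.47 for Elovl5 and 0.42 for Elovl2, against 0.054 for Fads1. Without OO.2 the offspring diet average was 0.34 for Elovl2, -0.22 for Fads1, -0.19 for Fads6 and -0.089 for Elovl1, and none passed. OO.2 had the highest stellate cell sum and the highest sum of the 2 analysed adipocyte markers, and OO.0 was the most deeply sequenced. The part of either library's features in these values was not tested.

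**Figure D3:**
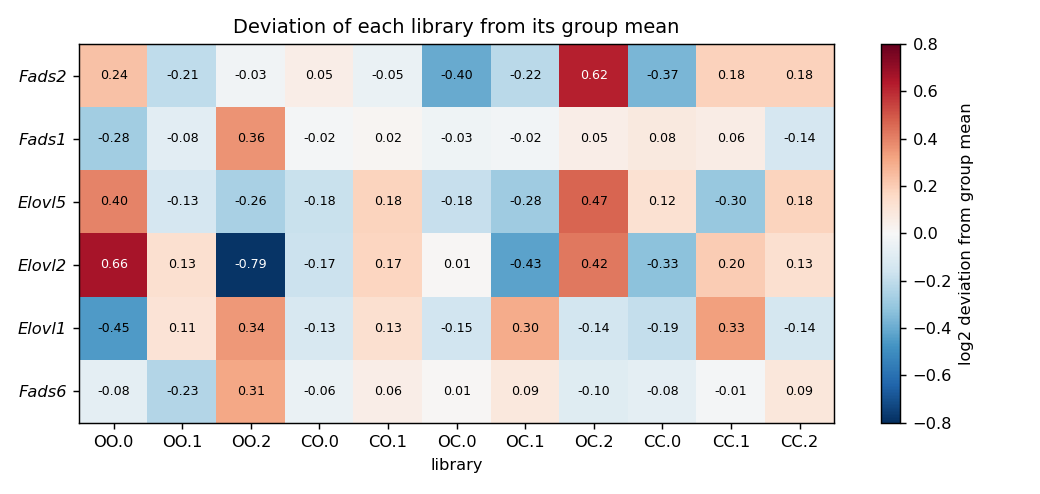
Deviation of each library (horizontal axis) from its own group's mean for each gene (vertical axis), on the log2(value + 0.5) scale, red above and blue below. OO.0 and OO.2 have opposite signs in all 6 genes: Elovl2 stands at 0.66 in OO.0 and -0.79 in OO.2, and Fads1 at -0.28 and 0.36. Deviations within a group cancel, so opposite signs between libraries are favoured by construction, and Fads2 in OO.2 stands only at -0.029.

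Over all 11 libraries, with group means removed, all 15 pairs of genes were tested by permuting libraries within groups (432 arrangements, exact), and the 4 with the smallest p for r are given. Fads1 and Elovl2 had r = -0.74 (exact p = 0.155) and rho = -0.37 (exact p = 0.407), and without OO.2 and OO.0, the 2 libraries farthest from the median of Fads1, r was -0.016, so the relation rests on those libraries. Elovl1 and Elovl5 had r = -0.71 (exact p = 0.0694) and rho = -0.67 (exact p = 0.0856), and r = -0.59 without OO.2 and CC.1. Elovl2 and Elovl5 had r = 0.66 (exact p = 0.0995) and rho = 0.58 (exact p = 0.139), and r = 0.54 without OO.2 and OC.1. Fads2 and Elovl2 had r = 0.55 (exact p = 0.130) and rho = 0.67 (exact p = 0.0671), and r = 0.56 without OC.2 and OC.0. None of the 15 pairs passed adjustment, the smallest Benjamini-Hochberg adjusted exact p being 0.506 for r and 0.578 for rho.

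Among 9327 named genes with a mean of at least 5, those with the pattern most like Fads2 over the 11 libraries were Vnn1 (r = 0.94), Fabp2 (0.93), Fabp1 (0.93) and Eci1 (0.92), as Pearson's r on the log2 scale. With group means removed these r values were 0.89, 0.88, 0.86 and 0.87. For Elovl5 they were Dcakd (r = 0.96), Acad11 (0.87), Wsb2 (0.86), Apoa4 (0.85) and Cpt1a (0.85). For Fads1 they were Nt5e (r = 0.90), Rdh9 (0.90), Cyp2a5 (0.89), Galm (0.89) and Abhd17a (0.89). For Elovl2 they were Nsmf (r = 0.86), Ilkap (0.86), B3gat3 (0.85), Rbms1 (0.85) and Yod1 (0.85). For Fads6 they were Sun1 (r = 0.91), Kars (0.88), Nkiras2 (0.88), Ncapd3 (0.87) and Pheta1 (0.87), and for Elovl1 Fkbp9 (r = 0.90), Slc46a1 (0.89), Pls3 (0.89), Rad9a (0.87) and Nrn1 (0.87). These are the highest of 9327 values each and are given as a description. No gene stood in 2 of the 6 lists.

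The genes that work with these enzymes were followed through 9 lists, described by counts and medians for the offspring diet average. Over all genes 3.96% passed in that comparison and 19.4% had an unadjusted p under 0.05, and in lists of 5 to 21 genes a few such genes are no result about a list. Fatty acid elongation takes a condensing elongase, the ketoacyl reductase Hsd17b12, a dehydratase of the Hacd family and the enoyl reductase Tecr. Of the 6 elongation cycle partners, Hsd17b12 rose and Tecr fell, and the list's median was 0.12. Hsd17b12 was 189, 196 and 200 in OO and 176 and 212 in CO, against 120, 148 and 179 in OC and 118, 153 and 139 in CC, a difference of 0.46 (SE 0.11; limma adjusted p = 0.0479). Tecr was 59.7, 63.3 and 85.0 in OO and 60.5 and 54.1 in CO, against 75.4, 95.5 and 81.6 in OC and 86.4, 88.6 and 85.4 in CC, a difference of -0.44 (SE 0.11; adjusted p = 0.0404). OO.2 alone of the obesogenic-fed offspring lay within the Tecr range of the controls, and OC.2 alone of the controls within the Hsd17b12 range of the obesogenic-fed. When single libraries were left out, the Hsd17b12 call was lost in 9 of 11 cases and held only without CC.1 or OC.2, and the Tecr call was lost in 10 and held only without OO.2. Over all alternatives the adjusted p reached 0.244 for Hsd17b12 and 0.177 for Tecr, with differences of 0.32 to 0.53 and -0.52 to -0.36.

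**Figure D4:**
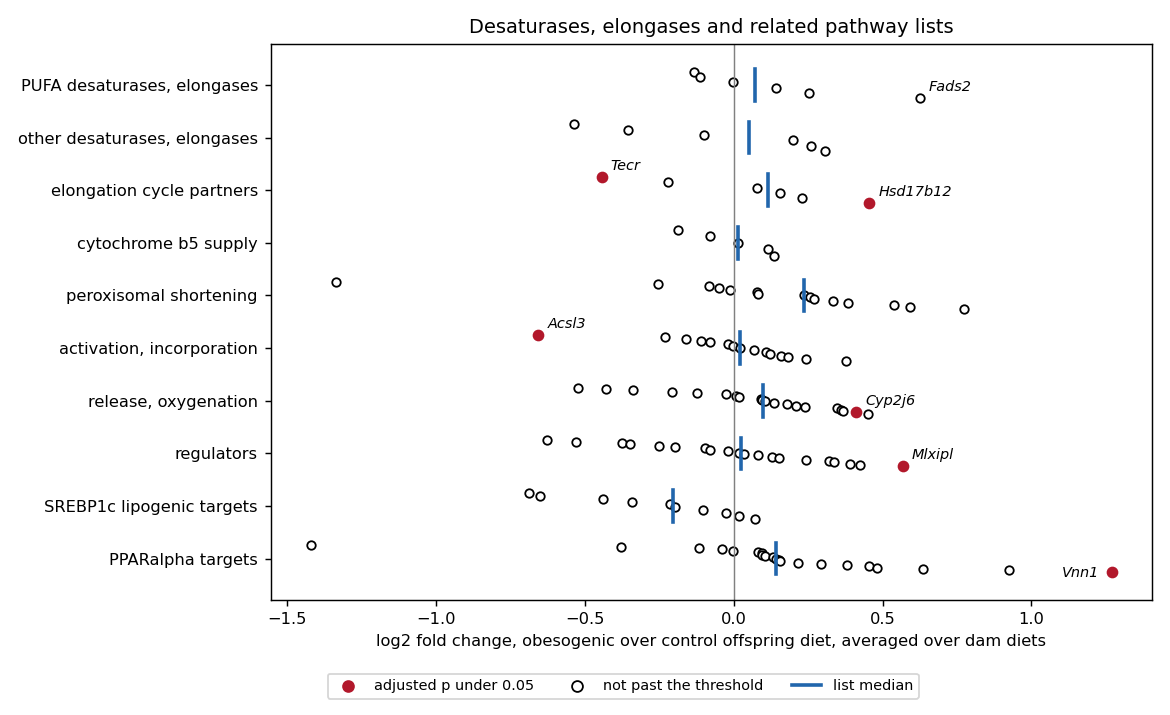
Log2 fold changes of the offspring diet average (horizontal axis) for the 6 genes and the 9 related lists (rows), with filled points for an adjusted p under 0.05 and a bar at each list's median. The filled points are Vnn1, Mlxipl, Hsd17b12 and Cyp2j6 above 0 and Tecr and Acsl3 below, and Fads2 is the highest of the 6 genes at 0.63.

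Electrons reach the desaturases through cytochrome b5 and its reductases. None of the 5 genes of that list passed limma's test or had an unadjusted p under 0.05 (0 of 5 each; median 0.016), and the smallest p was that of the reductase Cyb5r4, at 50.2 to 55.3 in OO and CO against 44.8 to 52.3 in OC and CC (log2 difference 0.12; limma adjusted p = 0.405). Among the 6 other desaturases and elongases, including Scd1, Scd2, Fads3, Elovl3 and Elovl6, 0 passed and 1 had an unadjusted p under 0.05 (median 0.050), and the dihydroceramide desaturase Degs1 came nearest, at 58.9 to 72.5 in OO and CO against 68.7 to 91.9 in OC and CC (-0.35; adjusted p = 0.0534). Fads3, the neighbour of Fads2, stood at 0.31 (SE 0.15; adjusted p = 0.303).

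Peroxisomal chain shortening finishes docosahexaenoic acid from a longer precursor. Of its 15 genes 0 passed and 6 (40%) had an unadjusted p under 0.05 by limma's test, beside 19.4% of all genes (median 0.24, 10 above 0). Of 15 genes of activation and membrane incorporation, the acyl-CoA synthetase Acsl3 fell, at 10.2 to 17.3 in OO and CO against 13.8 to 31.8 in OC and CC (-0.66; SE 0.15; limma adjusted p = 0.0360; list median 0.022). Of 20 genes of phospholipid release and oxygenation, the epoxygenase Cyp2j6 rose, at 77.9 to 99.3 in OO and CO against 57.7 to 79.3 in OC and CC (0.41; SE 0.093; adjusted p = 0.0323; list median 0.10). Reads of Cyp2j6 may be shared with close relatives of its family, and the sources used here do not say how such reads were divided. Both calls were lost in 8 of 11 cases when single libraries were left out, and held only without CC.0, OO.1 or OO.2 for Acsl3 and only without CC.1, CO.1 or OC.1 for Cyp2j6. Over all alternatives the adjusted p reached 0.120 for Acsl3 and 0.0931 for Cyp2j6.

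Of the 20 regulators, Mlxipl, which encodes the carbohydrate-responsive factor ChREBP, rose (0.57; SE 0.13; limma adjusted p = 0.0330; list median 0.026). It was 143, 182 and 129 in OO and 168 and 145 in CO, against 127, 103 and 145 in OC and 76.7, 105 and 79.3 in CC. Between CO and CC alone Mlxipl rose by 0.86 on the log2 scale (adjusted p = 0.0480), the only listed gene to pass in a comparison other than the average. Leaving out single libraries ended its call in 8 of 11 cases for the average, where it held only without CC.1, OC.2 or OO.2, and in 7 of 11 for CO against CC, where it held only without CC.1, OC.1, OO.1 or OO.2. The adjusted p reached 0.121 for the average and 0.183 for CO against CC. Of the factors known to act on Fads2, Ppara stood at 0.39 (SE 0.15, limma adjusted p = 0.176). Srebf1 stood at -0.25 (SE 0.20, limma adjusted p = 0.555), and neither passed. For Srebf1 the average joined opposite differences. Its mean was 25.9 in CO (20.7 to 31.2), wholly below 45.9 in CC (35.1 to 54.2). Such a separation is a common one, since 35.0% of all genes did not overlap between CO and CC. In 2167 of the 12086 genes CO lay below. The Srebf1 mean was 64.5 in OO (46.3 to 95.3), above 49.6 in OC (38.9 to 57.2), with overlap. For the interaction of the diets 0 of the 20 regulators passed.

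The targets of these factors are described by 2 lists. Of 21 PPARalpha targets, Vnn1, a pantetheinase, rose and none fell (list median 0.14, 16 above 0). Vnn1 was 283, 245 and 243 in OO and 231 and 234 in CO, against 71.7, 61.9 and 183 in OC and 88.0, 105 and 140 in CC, a difference of 1.27 (SE 0.24; limma adjusted p = 0.0143). All 5 values of obesogenic-fed offspring lay above all 6 of control-fed offspring, a separation whose share over all genes was not counted. Taken in pairs, CO lay wholly above CC in 17.0% of all genes, and OO wholly above OC in 6.60%. For Vnn1, OC.2 was again the highest of the controls. The call was lost without CO.1 and held without each other single library, and over all alternatives its adjusted p reached 0.113. Without OC.0 and CO.1, the pancreas-rich libraries, none of the calls of the 6 named genes held, for the average or, for Mlxipl, between CO and CC. Without OC.1 and CO.1, the libraries rich in acute phase transcripts, the calls of Acsl3, Hsd17b12, Mlxipl (both comparisons), Tecr and Vnn1 were lost too, sample weights ended that of Hsd17b12, and a fit of CO and CC alone ended that of Mlxipl between them. Leaving out either pair leaves 1 CO library, so the calls lost there do not tell a weaker difference from fewer libraries. When single libraries were left out, calls over all genes for the average ran from 253 to 483, beside 479. The differences behind the calls of Acsl3, Cyp2j6, Hsd17b12, Mlxipl, Tecr and Vnn1 kept their sign under every alternative. The other genes named from the lists were not recomputed under the alternatives. Of 10 lipogenic targets of SREBP-1c 0 passed (list median -0.20, 8 below 0). Of these, 3 (30%) had an unadjusted p under 0.05, beside 19.4% of all genes. Malic enzyme Me1 came nearest, at 76.6 to 152 in OO and CO against 117 to 194 in OC and CC (-0.69, limma adjusted p = 0.0579). The 9 lists together held 118 genes. For the offspring diet average 6 of them (5.08%) passed limma's test over all genes, near the 3.96% of all genes, and 31 (26.3%) had an unadjusted p under 0.05, beside 19.4%. Between OO and OC 0 passed, beside 0.165% of all genes, and 15 (12.7%) had an unadjusted p under 0.05, beside 8.01%. Between CO and CC 1 (0.847%) passed, beside 1.79%, and 27 (22.9%) had one, beside 16.8%. For the dam diet 0 passed between OC and CC, between OO and CO and in the average. There 5.93%, 7.63% and 10.2% of the listed genes had an unadjusted p under 0.05, beside 5.26%, 5.92% and 6.13% of all genes. For the interaction 0 passed, and 4.24% had an unadjusted p under 0.05, beside 4.56% of all genes.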

How the data were processed

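Liver RNA of 4 groups was made into TruSeq libraries, per the labels' protocols. The table the authors deposited is named as CPM, but its columns behave as a signal in which gene counts of each library were scaled by a single constant. Sums per library were 929699 to 1099400, and 95.6% to 97.3% of a library's values lay within 0.01 read of a whole multiple of the value of 1 read, 0.0334 to 0.276, which gave the approximate depths. Alignment used Bowtie 1.2.3 and mm8, per the submitters' processing notes. The sources used here name no counter, strand setting or annotation. Symbols were found for 11965 of 12086 genes.

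The test was limma 3.58.1 (R 4.3.3) with an intensity trend on log2(value + 0.5), 1 mean per group over all 11 libraries, genes with a value of at least 1 in at least 3 libraries (all 12086), and Benjamini-Hochberg adjustment at 0.05. It was tested on simulated data with known changes. The members, lists, named-gene rule and alternatives were chosen with earlier results of these data known. From each list, genes past the threshold in any comparison were named, or else the one with the smallest p for the offspring diet average, together with Fads3, Ppara and Srebf1, which were named after their values were seen. Some genes that these rules take are not reported here. The planned design assumed CPM, and the log-scale test was kept. Alternatives were other pseudocounts (0.1 and 2), a minimum value of 5 or none, median-of-ratios or quantile scaling, sample weights, robust variance, a fit of only the groups at issue, and leaving out single libraries or pairs. Counting error was taken from the approximate reads and covers nothing else.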

Additional observations from a re-analysis of the deposited data

How the results depend on the processing

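No paired analysis was possible because the columns carry a group and a running number that no label ties to an animal or litter. The count-based alternatives of the plan were not run, since some values of each library were not whole multiples of 1 read. The 42 log2 fold changes of the 6 genes were recomputed under 23 alternatives. Of 948 values, 847 kept their sign and their side of the threshold, 1 passed it (Fads2 without OC.2, above) and 100 changed sign, in 23 of the 42 results, none of which was larger than 0.24 in size. The cause of the changes of sign was not tested. The number of the 6 genes called was 0 under every alternative, except 1 for the offspring diet average without OC.2. Counts over all genes moved more: 14 to 233 for CO against CC, 8 to 124 for OO against OC, 0 to 2 for OC against CC, 0 to 20 for OO against CO, 134 to 747 for the offspring diet average, 0 to 6 for the dam diet average and 0 to 5 for the interaction.

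With sample weights the sign changed for 11 values. Elovl1 was -0.094 (OO against CO). Elovl2 was 0.12 (the interaction), 0.086 (the dam diet average), 0.027 (OC against CC) and 0.15 (OO against CO). Elovl5 was -0.053 (CO against CC). Fads1 was -0.22 (the interaction). Fads2 was 0.081 (the dam diet average), 0.040 (OC against CC) and 0.12 (OO against CO). Fads6 was 0.0054 (the interaction).

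With quantile normalization the sign changed for 2 values. Fads2 was 0.0083 (OO against CO). Fads6 was 0.0061 (the interaction).

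With median-of-ratios scaling the sign changed for 1 value, Fads1 at -0.0075 (the interaction).

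Without OC.1 and CO.1, the libraries rich in acute phase transcripts, the sign changed for 13 values. Elovl1 was -0.12 (CO against CC), 0.25 (the interaction), 0.0077 (the offspring diet average) and 0.13 (OO against OC). Elovl2 was 0.033 (the dam diet average), 0.13 (OC against CC), -0.051 (the offspring diet average) and -0.15 (OO against OC). Elovl5 was -0.15 (CO against CC). Fads2 was -0.075 (the interaction) and 0.0087 (OC against CC). Fads6 was 0.089 (the interaction) and 0.037 (OO against CO).

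Without OC.0 and CO.1, the pancreas-rich libraries, the sign changed for 10 values. Elovl1 was -0.12 (CO against CC) and 0.031 (the interaction). Elovl2 was 0.022 (the interaction). Elovl5 was -0.15 (CO against CC). Fads2 was -0.17 (the interaction), 0.017 (the dam diet average) and 0.10 (OC against CC). Fads6 was 0.052 (the interaction), 0.011 (the dam diet average) and 0.037 (OO against CO).

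Leaving out single libraries gave these ranges where a sign changed. Elovl1 ran from -0.12 to 0.17 (CO against CC), -0.0063 to 0.39 (OO against CO), -0.19 to 0.21 (OO against OC), -0.19 to 0.21 (the interaction) and -0.089 to 0.11 (the offspring diet average). Elovl2 ran from -0.30 to 0.13 (OC against CC), -0.57 to 0.15 (OO against CO), -0.27 to 0.46 (OO against OC), -0.49 to 0.24 (the interaction), -0.33 to 0.035 (the dam diet average) and -0.022 to 0.34 (the offspring diet average). Elovl5 ran from -0.15 to 0.20 (CO against CC) and -0.14 to 0.23 (OO against CO). Fads1 ran from -0.31 to 0.011 (OO against OC) and -0.17 to 0.15 (the interaction). Fads2 ran from -0.41 to 0.10 (OC against CC), -0.13 to 0.091 (OO against CO), -0.11 to 0.40 (the interaction) and -0.21 to 0.044 (the dam diet average). Fads6 ran from -0.052 to 0.039 (OC against CC), -0.17 to 0.099 (OO against CO), -0.17 to 0.11 (the interaction) and -0.092 to 0.045 (the dam diet average).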
